A study of Mus musculus with 24 samples.

Results

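Albumin (Alb), alpha-fetoprotein (Afp), afamin (Afm) and the vitamin D-binding protein (Gc) form 1 family of secreted plasma proteins. The 4 genes were taken by symbol from the table of ribosome footprint counts, which lists 22429 genes, and all 4 were among the 12211 genes that passed the filter on low counts. Their identifiers in that table are ENSMUSG00000029368.10 (Alb), ENSMUSG00000054932.6 (Afp), ENSMUSG00000029369.17 (Afm) and ENSMUSG00000035540.12 (Gc). Footprints are the mRNA fragments that translating ribosomes protect from nuclease, and they were counted in the livers of 24 male mice of the strain F1 Hybrid C57BL6J/FVBN, in 6 groups of 4. The groups were Ercc1 d/- mutants at 16 weeks on dietary restriction (DR), Ercc1 d/- mutants of 16 weeks with free access to food (fed), fed Ercc1 d/- mutants of 7 weeks, Ercc1 +/+ wild types on DR at 16 weeks, fed Ercc1 +/+ wild types of 104 weeks and fed Ercc1 +/+ wild types of 16 weeks. All mice were housed singly on the same synthetic diet, and food was withheld on the day of collection until the liver was taken. DR began at 7 weeks with 10% less food and reached 30% at 9 weeks, which gave 1.6 g per day to mutants, against 2.3 g for fed mutants, and 2.1 g per day to wild types, against 3.0 g for fed wild types. Ercc1 encodes a subunit of a nuclease that repairs DNA, and the mutants carry 1 null and 1 truncated allele in every tissue. No wild types of 7 weeks were among the samples, so the youngest mutants have no control of their own age.

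Albumin is the main protein of adult blood plasma, holds water in the circulation and carries fatty acids, bilirubin and many drugs. Alpha-fetoprotein takes its place before birth. In the mouse it is made by yolk sac and fetal liver, is shut off in hepatocytes in the weeks after birth, and is made again in regenerating or cancerous liver. Afamin carries vitamin E and binds Wnt proteins, and Gc carries vitamin D metabolites and clears actin from plasma. Hepatocytes are the main source of all of them in the adult.

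The genes lie together on mouse chromosome 5 (RefSeq, build GRCm38.p6). Alb (chr5:90460870-90476602), Afp (chr5:90490714-90508907) and Afm (chr5:90518949-90553544) follow each other on the plus strand, with 14111 bases between Alb and Afp and 10041 bases between Afp and Afm. Gc (chr5:89417511-89457898) lies on the minus strand, 1002971 bases from Alb. Alb, Afp and Afm stand side by side and differ in the comparisons that moved them, so the 150 bases before each RefSeq start are shown 5′ to 3′ on the gene's own strand. Capitals mark the letters CCAAT (the CCAAT box) and TATAAA (the TATA box), each searched on both strands.
Alb, chr5:90460720-90460869, plus strand: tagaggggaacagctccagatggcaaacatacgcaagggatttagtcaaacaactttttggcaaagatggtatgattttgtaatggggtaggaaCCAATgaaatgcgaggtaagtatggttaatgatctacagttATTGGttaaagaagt
Afp, chr5:90490564-90490713, plus strand: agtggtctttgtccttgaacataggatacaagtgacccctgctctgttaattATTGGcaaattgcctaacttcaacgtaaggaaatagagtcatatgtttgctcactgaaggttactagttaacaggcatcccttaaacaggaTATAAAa
Afm, chr5:90518799-90518948, plus strand: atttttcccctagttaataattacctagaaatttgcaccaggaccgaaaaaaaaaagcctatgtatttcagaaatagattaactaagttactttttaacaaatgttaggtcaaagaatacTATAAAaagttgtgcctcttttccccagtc
Gc, chr5:89457899-89458048, minus strand: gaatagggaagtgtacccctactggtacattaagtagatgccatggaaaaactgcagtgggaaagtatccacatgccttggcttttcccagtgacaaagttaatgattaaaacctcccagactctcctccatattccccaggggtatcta

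CCAAT was found before Alb, in both orientations, and before Afp, and 24.5% of 32851 RefSeq mouse promoters held it in the same 150 bases. Its first base lies at positions -56 and -15 before Alb and -98 before Afp, counted back from the start. TATAAA was found at position -7 before Afp and -30 before Afm, and 7.57% of promoters held it. Neither was found before Gc. No motif overlapped another. These matches describe letters in a window, and no binding was measured. Only these exact letters were searched, and start sites were not measured here, so the positions depend on the RefSeq starts.

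The libraries held between 13366558 and 27084259 gene counts. Ercc1 footprints were between 1 and 15 counts in the 12 mutant libraries and between 34 and 110 in the 12 wild-type libraries, so the genotypes went with the labels. Levels are CPM, counts scaled to a common library size, as mean ± SD over 4 libraries. Changes are log2 differences ± SE from edgeR's quasi-likelihood test over all groups, called at a Benjamini-Hochberg adjusted p under 0.05 over all 12211 genes. Nothing beyond the numbers #1 to #4 says how the animals of a group relate, so p-values measure the spread between these samples. In whole liver, fewer cells of a type and less RNA per cell cannot be told apart, and mRNA levels were not used here, so a footprint change is not split into mRNA and translation. CPM levels are compared between groups for the same gene only, since transcript lengths were not used.

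Alb had more counts than any other gene in all 24 libraries. Gc ranked between place 12 and place 39 and Afm between 277 and 458, while Afp ranked between 2720 and 13641. Over the 24 libraries Afm was the steadiest of the 4, with a coefficient of variation of 11.1%, against 18.4% for Gc, 35.3% for Alb and 121% for Afp. Of 28 tests, 4 genes in 7 comparisons, 7 passed the threshold: 3 for Afp, 3 for Alb, 1 for Gc and none for Afm.

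**Figure D1:**
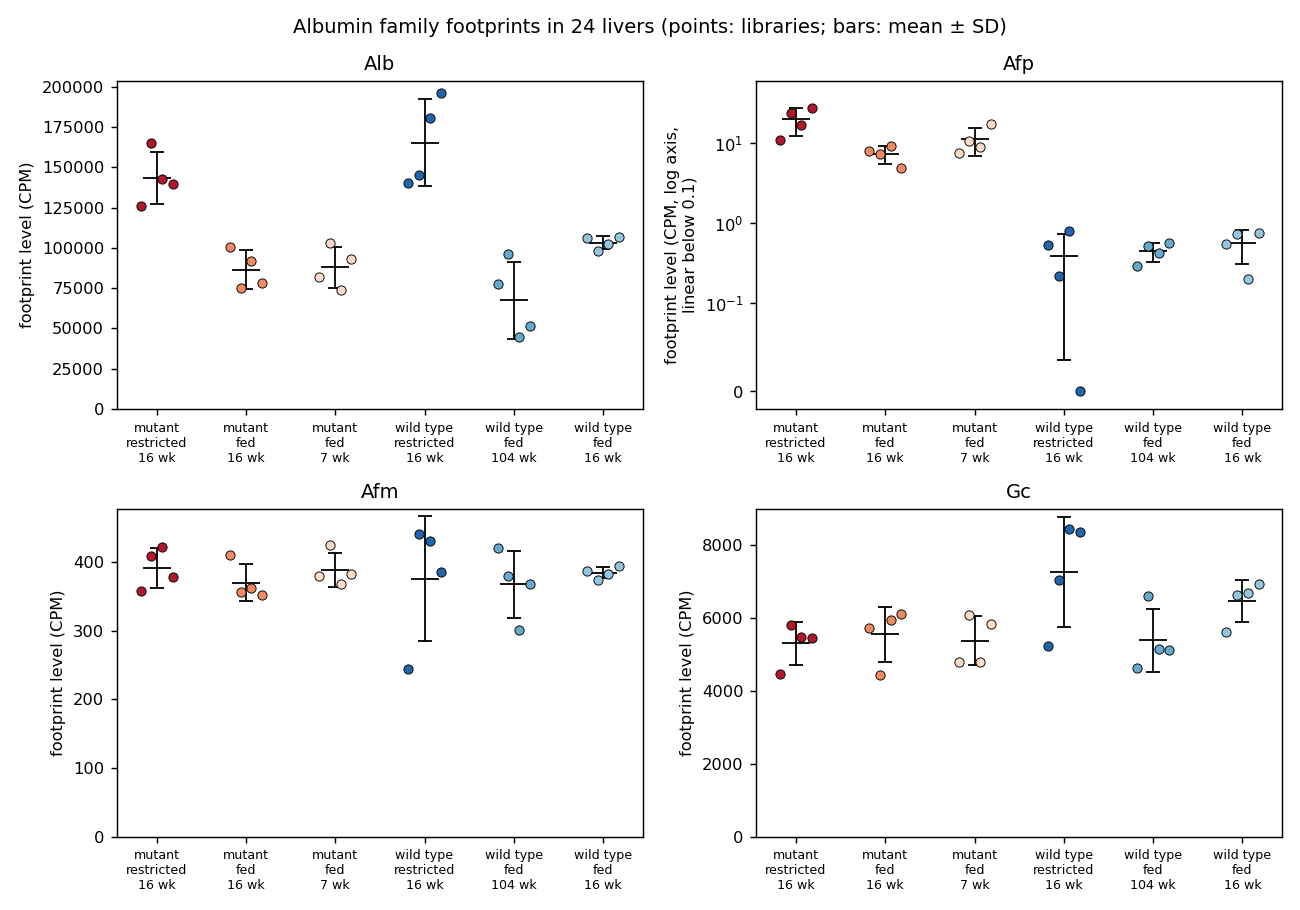
Footprint level in CPM (y axes) of Alb, Afp, Afm and Gc by group, with 1 point per library and bars for mean ± SD over 4 libraries; the Afp axis is logarithmic above 0.1 and linear below it. All 12 mutant libraries lie at 4.82 CPM of Afp or more and all 12 wild-type libraries at 0.795 or less, and Alb is highest in both restricted groups.

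Afp was higher in mutants than in wild types of 16 weeks under both diets. Fed mutants at 16 weeks had 7.87, 7.22, 9.14 and 4.82 CPM of Afp, against 0.548, 0.735, 0.200 and 0.745 CPM in fed wild types of that age. These values rest on 108 to 167 Afp counts per mutant library and on 5 to 14 per wild-type library. The groups were far apart, and the lowest mutant library held more Afp than the highest wild-type library. Afp was 13.7-fold higher in fed mutants, a log2 change of 3.77 ± 0.46 with an adjusted p of 5.56e-06 in edgeR's test. It was the 1 member called in this comparison, in which 10.7% of all tested genes were called and 10.9% lay above wild type in every library. Leaving out any of the 8 libraries kept the log2 change between 3.44 and 3.97 and the adjusted p at 7.89e-05 or below.

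Restriction raised Afp further in the mutants. Restricted mutants had 11.1, 24.1, 16.7 and 27.8 CPM, or 19.9 ± 7.47 CPM, against 7.26 ± 1.81 CPM in fed mutants. Every restricted mutant library lay above every fed one of the same age, the closest pair being 11.1 and 9.14 CPM. The fold was 2.74 and the log2 change 1.45 ± 0.36 (adjusted p = 0.00884, edgeR). Afp was 1 of 2 members called in this comparison, beside Alb, and both lay above the fed mutants in every library. Of all genes 11.6% were called and 8.43% lay above in every library. Without any 1 of the 8 libraries, Afp remained called.

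In wild types, restriction left Afp near the limit of counting. Restricted wild types had 0.524, 0.216, 0.795 and 0 CPM, from 16, 4, 18 and 0 counts, against 0.557 ± 0.255 CPM in fed wild types. The 2 groups overlapped, and in the library with no Afp count up to 3 counts of 17417171 could have been missed, or 0.172 CPM of its total. The log2 change was -0.33 with a 95% interval of -1.52 to 0.87 (adjusted p = 0.770, edgeR). The difference between the responses of mutants and wild types to restriction was 1.78 ± 0.68 on the log2 scale (adjusted p = 0.240, unadjusted p = 0.0145), so a larger response in mutants was not shown. None of the 4 genes was called for this difference, and 0.803% of all genes were.

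Restricted mutants against restricted wild types gave the widest gap. Their Afp was 47.0-fold higher, a log2 change of 5.55 ± 0.47 (adjusted p = 2.42e-08, edgeR). The fold depends on few wild-type counts, 38 over 4 libraries. Without the wild-type library that held no Afp count, or any other 1 of the 8, the log2 change was between 5.21 and 6.05. Afp and Gc were the 2 members called here, where 18.2% of all genes were called. Afp lay above wild type in every library, as did 8.31% of all genes.

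No difference in Afp between ages passed the threshold. Mutants had 7.47, 10.7, 9.06 and 17.3 CPM at 7 weeks, a mean of 11.1 ± 4.33 CPM, beside 7.26 ± 1.81 CPM at 16 weeks. The ages overlapped, and the log2 change of 16 over 7 weeks was -0.62 ± 0.36 (adjusted p = 0.616, edgeR). None of the 4 genes was called between these ages, with 0.434% of all genes called. Restriction began at 7 weeks, and the restricted mutants of 16 weeks, with a mean of 19.9 CPM, overlapped the fed mutants of 7 weeks. Those 2 groups were not tested against each other. Wild types of 104 weeks had 0.285, 0.508, 0.416 and 0.553 CPM, within the range of wild types of 16 weeks, and their log2 change was -0.24 ± 0.61 (adjusted p = 0.864).

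Alb was the only gene of the family that rose under restriction in both genotypes. Restricted mutants had 125942, 165433, 142544 and 139756 CPM of Alb, against 100555, 75108, 92102 and 78434 CPM in fed mutants of 16 weeks. The groups did not overlap, and Alb was 1.66-fold higher in restricted mutants, a log2 change of 0.73 ± 0.19 (adjusted p = 0.0109, edgeR) that stayed called without any 1 of the 8 libraries. Restricted wild types had 140068, 145006, 180505 and 196046 CPM, against 105956, 98222, 102418 and 106716 CPM in fed wild types. These groups did not overlap either, and Alb was 1.60-fold higher, a log2 change of 0.68 ± 0.19 (adjusted p = 0.0169). Alb was the 1 member called in this comparison, in which 12.1% of all genes were called and 6.35% lay above in every library. The wild-type call was lost without restricted replicate 4 (adjusted p = 0.0541) and in a fit of the 8 libraries alone (adjusted p = 0.0511), with the log2 change at 0.62 or above in both. The responses of the genotypes differed by 0.05 ± 0.26 on the log2 scale, with a 95% interval of -0.50 to 0.60.

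As a share of all gene counts, Alb took 13.6, 17.4, 16.1 and 15.0% in restricted mutants, against 9.58, 8.61, 9.33 and 8.04% in fed mutants. In restricted wild types it took 15.8, 14.2, 17.0 and 18.6%, against 10.7, 9.18, 10.2 and 9.65% in fed wild types. In both genotypes every restricted library gave a larger share to this 1 gene than every fed library did. The difference was 6.62 percentage points in mutants and 6.48 percentage points in wild types. An exact permutation test over 70 assignments of 4 against 4 libraries gave its smallest possible p, 0.0286, for both, and 0.0980 after adjustment over the 24 share tests. With all 4 members counted, the family took 16.1 ± 1.64% of counts in restricted mutants, 9.50 ± 0.686% in fed mutants, 17.2 ± 1.91% in restricted wild types and 10.6 ± 0.644% in fed wild types.

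In old age Alb was lower and more uneven. Wild types of 104 weeks had 77339, 95982, 44395 and 51783 CPM, a mean of 67375 ± 23727 CPM, against 103328 ± 3885 CPM at 16 weeks. All old libraries lay below all young ones, but replicates 3 and 4 lay far below replicates 1 and 2. Alb was 1.53-fold lower in old wild types, a log2 change of -0.62 ± 0.19 (adjusted p = 0.0352, edgeR), and it was the 1 member called, where 9.34% of all genes were called and 8.98% lay below in every library. The call rested on single libraries. It was lost without old replicate 3 (log2 change -0.46, adjusted p = 0.128), without old replicate 4 (-0.51, 0.116), without any 1 of the 4 young libraries (adjusted p between 0.0556 and 0.0760) and in a fit of the 8 libraries alone (0.102). The share of Alb in gene counts was 6.42 ± 1.63% in old wild types and 9.92 ± 0.657% in young ones. Markers of other cells moved in the same comparison. Of the Kupffer cell and macrophage markers 9 of 12 were higher in old wild types (sums of 387 to 520 CPM, against 239 to 281 CPM in young ones), as were all 3 tested B and plasma cell markers (mean sums of 54.2 CPM, against 2.52 CPM) and 2 of 3 tested neutrophil markers, while all 4 proliferation markers were lower. Of 6 hepatocyte markers 1 was called higher in old wild types and none lower. Their sums were 45604.5 to 64319.6 CPM in old wild types and 41767.5 to 51035.6 CPM in young ones. The part of all these markers in the Alb level was not tested.

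Genotype did not move Alb past the threshold. Fed mutants had 86550 ± 11885 CPM, against 103328 ± 3885 CPM in fed wild types, a log2 change of -0.26 ± 0.19 with a 95% interval of -0.65 to 0.13 (adjusted p = 0.432, edgeR). Restricted mutants had 143419 ± 16373 CPM, against 165406 ± 27234 CPM in restricted wild types, with a log2 change of -0.21 ± 0.19 (adjusted p = 0.482). Between mutants of 16 and 7 weeks the log2 change was -0.02 ± 0.19. From highest to lowest, the group means ran from restricted wild types and restricted mutants, which overlapped, over fed wild types of 16 weeks, fed mutants of 7 weeks and fed mutants of 16 weeks to old wild types, and only the step from restricted mutants to fed wild types of 16 weeks separated all libraries of neighbours in that order.

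**Figure D2:**
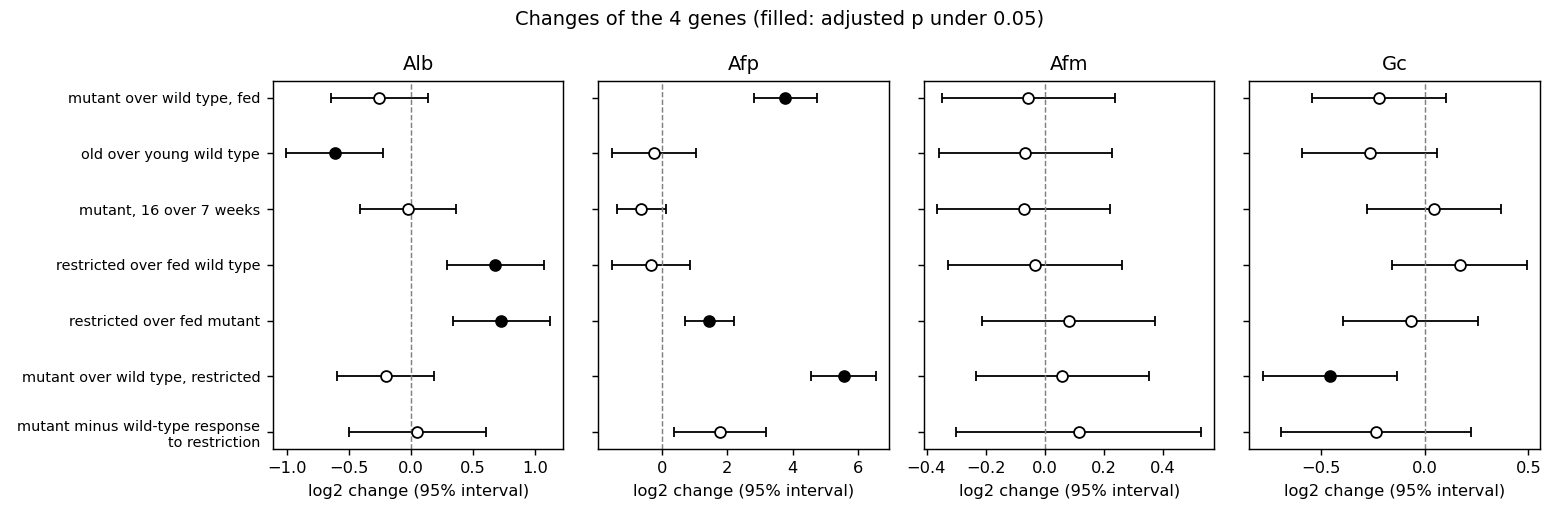
Log2 change (x axes) of Alb, Afp, Afm and Gc in 7 comparisons (y axis), with bars for the unadjusted 95% interval and filled points where the adjusted p was under 0.05; the x axes differ in range. Afp stands at 3.77 and 5.55 in mutants over wild types, Alb at 0.68 and 0.73 under restriction, and all Afm intervals cover 0.

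Afm was close to level in all groups. Restricted mutants had 357, 409, 421 and 377 CPM, against 410, 356, 362 and 351 CPM in fed mutants. Restricted wild types had 244, 441, 431 and 385 CPM, against 387, 374, 382 and 393 CPM in fed wild types. All of these groups overlapped, and restricted wild-type replicate 1 was the lowest of the 24 libraries. The 7 log2 changes lay between -0.07 and 0.11, with 0.783 as the lowest adjusted p (edgeR). The 95% interval in fed mutants over fed wild types was -0.35 to 0.24, and in restricted over fed mutants it was -0.21 to 0.38. Afm lies beside Afp, on the same strand, and was not called where Afp was.

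Gc differed in 1 comparison. Restricted mutants had 4468, 5809, 5491 and 5443 CPM of Gc, against 5223, 7048, 8451 and 8372 CPM in restricted wild types. The groups overlapped through wild-type replicate 1. Gc was 1.37-fold lower in restricted mutants, a log2 change of -0.46 ± 0.15 (adjusted p = 0.0397, edgeR). This call was lost without any of 5 of the 8 libraries, with adjusted p between 0.0562 and 0.112, in a fit of the 8 libraries alone (0.164) and with library sizes left unscaled (0.0846). In the other comparisons its log2 changes lay between -0.27 and 0.17, with adjusted p of 0.313 or above.

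Set against Alb within a library, Gc and Afm both stood lower under restriction. Restricted mutants had 35.5, 35.1, 38.5 and 38.9 Gc counts per 1000 Alb counts, against 56.8, 59.2, 64.4 and 78.1 in fed mutants. Restricted wild types had 37.3, 48.6, 46.8 and 42.7, against 53.1, 67.6, 65.3 and 65.0 in fed wild types. For Afm the ratio was 2.74 ± 0.208 in restricted mutants and 4.31 ± 0.375 in fed mutants, and 2.28 ± 0.571 in restricted wild types and 3.72 ± 0.0657 in fed wild types. None of these 4 pairs of groups overlapped. The ratio of Afm to Alb also stood higher in old than in young wild types, at 5.82 ± 1.43 against 3.72 ± 0.0657, and higher in fed mutants than in fed wild types.

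Of 18 ratio tests, 8 gave the smallest p that the exact permutation test allows, 0.0286, which is 0.0643 after adjustment over the 18. They were the 4 above under restriction, Afm to Alb in old wild types and in fed mutants, and Afp to Alb in mutants under both diets. Afp to Alb was 0.137 ± 0.0472 counts per 1000 in restricted mutants and 0.0838 ± 0.0175 in fed mutants, and these overlapped (p = 0.0857, exact permutation test). A shared denominator ties all of these ratios to Alb, so they are not independent of its own change.

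**Figure D3:**
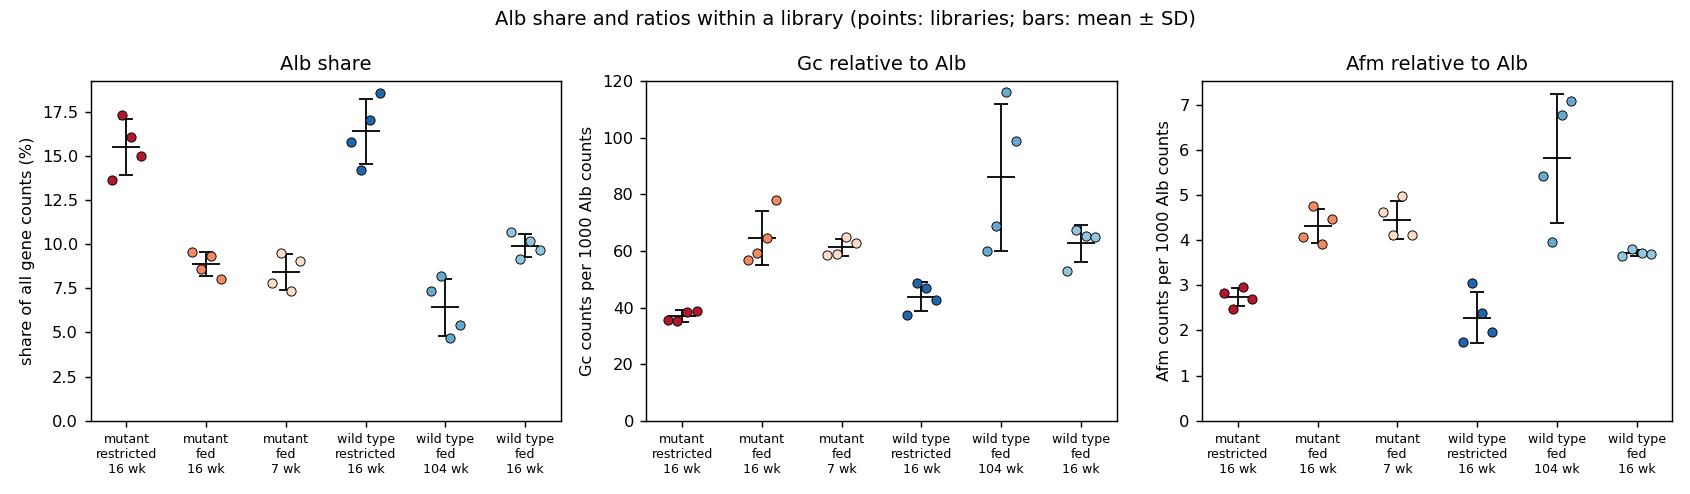
Share of all gene counts taken by Alb in percent, and Gc and Afm counts per 1000 Alb counts (y axes), by group, with 1 point per library and bars for mean ± SD over 4 libraries. Both restricted groups have the largest Alb shares, at 13.6% or more, and the lowest ratios of Gc and Afm to Alb.

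Gpc3 was higher in mutants than in wild types under both diets, as Afp was. It belongs to a list of 17 genes of fetal liver and liver cancer beside Afp, of which 9 passed the filter. In fed mutants over fed wild types it was the 1 of the 9 called, a share near the 10.7% of all genes called there. Lin28b, Igf2bp1, Igf2bp3, Dlk1, Hmga2, Cdh17 and Trim71, which mark fetal or stem-like cells, did not, with at most 15 counts in any library, and H19 has no row under that symbol. Gpc3, a cell-surface proteoglycan that liver shuts off after birth, had 5.01 ± 1.36 CPM in fed mutants and 1.31 ± 0.245 CPM in fed wild types. Its log2 change was 1.92 ± 0.36 (adjusted p = 0.000763, edgeR), and no library of the groups overlapped. Restricted mutants had 8.22 ± 2.37 CPM of Gpc3, against 2.46 ± 1.30 CPM in restricted wild types, a log2 change of 1.74 ± 0.34 (adjusted p = 0.000704). Both calls held without any 1 library.

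The median log2 change of the 9 tested fetal genes was 0.45 in fed mutants over fed wild types, beside 0.01 over all genes, and 0.70 in restricted mutants over restricted wild types, beside -0.01 over all genes. In restricted mutants over restricted wild types, where 18.2% of all genes were called, 3 of the 9 were called, all higher: Gpc3, Krt19 and Cd24a, the last 2 of which also mark bile duct and progenitor cells. Krt19 had between 1.42 and 32.2 CPM in restricted mutants, against 0.325 to 1.02 CPM in restricted wild types. Without restricted mutant replicate 3 the Krt19 change fell to 1.39 on the log2 scale (adjusted p = 0.153) and the Cd24a change to 1.05 (0.236), and the Cd24a call held in 2 of the 8 fits that left out 1 library. Krt19 was also the 1 fetal gene called in restricted over fed mutants, at a log2 change of 3.30. That call held in 4 of the 8 fits that left out 1 library. Without restricted mutant replicate 3 the change fell to 0.86 (adjusted p = 0.436). Afp stayed called in both comparisons without that library.

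Markers of other cells were called in some of these contrasts. Of all genes 10.7% were called in fed mutants over fed wild types and 11.6% in restricted over fed mutants. The shares were 18.2% in restricted mutants over restricted wild types and 12.1% in restricted over fed wild types. Counts near these shares, such as 2 of 12 Kupffer cell and macrophage markers in restricted over fed wild types, are not read as results. All 12 Kupffer cell and macrophage markers were higher in fed mutants than in fed wild types, and their summed level was 486 to 646 CPM in fed mutants and 239 to 281 CPM in fed wild types. In restricted over fed mutants, where Afp rose, none of the 12 was called, with sums of 484 to 628 CPM in restricted mutants and 486 to 646 CPM in fed mutants. Of 5 tested bile duct and progenitor markers, none was called in fed mutants over fed wild types, with sums of 17.7 to 25.1 CPM in mutants and 14.8 to 18.2 CPM in wild types. Krt19 was the 1 called in restricted over fed mutants, with sums of 14.5 to 60.8 CPM and 17.7 to 25.1 CPM. Of 6 stellate cell markers 3, of 3 tested neutrophil markers 2 and of 3 tested B and plasma cell markers 1 were higher in fed mutants than in fed wild types, and 1 neutrophil marker was lower. In restricted mutants over restricted wild types, where the Afp gap was widest, 6 of 12 Kupffer cell and macrophage markers were higher (sums of 484 to 628 CPM in mutants and 285 to 462 CPM in wild types). In that comparison 2 of 6 stellate cell markers, 1 bile duct and progenitor marker (Krt19), 1 neutrophil marker and 1 endothelial marker were also higher, and 1 neutrophil and 1 endothelial marker were lower. Of 5 endothelial markers 2 were higher in restricted than in fed mutants. In restricted over fed wild types 2 of 12 Kupffer cell and macrophage markers and 2 of 6 stellate cell markers were higher. The stellate cell sums were 208 to 393 CPM in restricted wild types and 129 to 185 CPM in fed ones. In that comparison 2 of 3 tested B and plasma cell markers, 1 endothelial marker and 1 of 6 hepatocyte markers were also higher. None of the listed markers stood at 0 in all libraries, and 3 T cell markers, Cftr, Cd79a, Iglc2 and Retnlg lay under the filter. The part of these cells in the Alb, Afp and Gpc3 levels was not tested.

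All 4 proliferation markers were called higher in restricted mutants than in restricted wild types, with sums of 9.64 to 12.4 CPM in mutants and 0.972 to 3.52 CPM in wild types. None was called in fed mutants over fed wild types, where the sums were 9.08 to 14.3 CPM and 6.21 to 14.1 CPM. All 4 were called lower in restricted than in fed wild types, with a median log2 change of -2.15, where 12.1% of all genes were called. None was called in restricted over fed mutants. The part of the proliferation markers in the Afp level was not tested. The 6 hepatocyte markers summed to 31438 to 38551 CPM in restricted mutants, 32421 to 43162 CPM in fed mutants, 37050 to 49525 CPM in restricted wild types and 41768 to 51036 CPM in fed wild types of 16 weeks. In fed mutants over fed wild types 1 of the 6 was called lower and none higher, where 10.7% of all genes were called. In restricted mutants over restricted wild types 3 were lower and 1 higher, with a median log2 change of -0.46. In restricted over fed mutants 2 were lower and 2 higher, with a median of -0.22. Of all genes 18.2% were called in the first and 11.6% in the second of these 2 comparisons. Afp was higher in all 3 of these mutant comparisons, and the part of the hepatocyte markers in its level was not tested.

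Among 19 transcription factors known to act on the albumin gene cluster, 4 were called lower and none higher in fed mutants than in fed wild types, where 10.7% of all genes were called. Their median log2 change was -0.27, beside 0.01 over all genes. Nfia and Nfib, nuclear factor I proteins, fell by 0.81 ± 0.21 and 0.69 ± 0.18 on the log2 scale (adjusted p = 0.0125 and 0.0148, edgeR). Foxa2, a factor that opens chromatin at liver genes, had 10.3 ± 2.57 CPM in fed mutants and 24.3 ± 9.17 CPM in fed wild types (log2 change -1.24 ± 0.36, adjusted p = 0.0289). Foxa1, of the same family, had 5.60 ± 1.48 CPM in fed mutants and 11.2 ± 3.72 CPM in fed wild types (log2 change -0.98 ± 0.31, adjusted p = 0.0406). The 2 groups overlapped for Foxa1 and not for Nfia, Nfib or Foxa2. Of all genes 10.9% lay above wild type in every library, and the share below is not given here. The calls were close to the threshold: without 1 library the adjusted p reached 0.0522 for Nfia, 0.0548 for Nfib, 0.114 for Foxa2 and 0.151 for Foxa1. Of the 8 fits that left out 1 library, the call held in 7 for Nfia, 6 for Nfib, 3 for Foxa2 and 2 for Foxa1. With library sizes left unscaled none of the 4 was called, at adjusted p of 0.0560 for Nfia, 0.0786 for Nfib, 0.0533 for Foxa2 and 0.105 for Foxa1.

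In restricted mutants over restricted wild types, 3 of the 19 factors were called lower and none higher, with a median of -0.36, where 18.2% of all genes were called. They were Foxa1 (log2 change -1.02, adjusted p = 0.0212), Cebpa, a factor of mature hepatocytes (-0.65, 0.0222), and Nfib (-0.53, 0.0420). Of the 8 fits that left out 1 library, the call held in 5 for Foxa1, 5 for Cebpa and 3 for Nfib. The adjusted p reached 0.0744 for Foxa1, 0.0803 for Cebpa and 0.213 for Nfib. All 3 were also lost with library sizes left unscaled (adjusted p = 0.0601, 0.0916 and 0.182, in the same order) and in a fit of the 8 libraries alone (0.0691, 0.143 and 0.221). Foxa2 was the 1 factor called in restricted over fed mutants, higher by 1.27 ± 0.36 (adjusted p = 0.0238). That call held in 3 of the 8 fits that left out 1 library, with the adjusted p reaching 0.104.

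Zhx2 and Zbtb20 are the factors known to shut Afp off in mouse liver after birth, and Zhx2 is known to do the same to Gpc3. Neither was called between the genotypes. Zhx2 had 6.90 ± 0.640 CPM in fed mutants and 9.38 ± 1.45 CPM in fed wild types. Every fed mutant library lay below every fed wild-type library, and the share of all genes that did so is not given here. The log2 change of -0.44 ± 0.22 had an adjusted p of 0.210 (edgeR). Under restriction Zhx2 was at 7.21 ± 0.893 CPM in mutants and 7.55 ± 2.43 CPM in wild types (log2 change -0.07 ± 0.21, adjusted p = 0.853). Zbtb20 had 29.2 ± 2.54 CPM in fed mutants and 37.2 ± 6.19 CPM in fed wild types (log2 change -0.35 ± 0.27, adjusted p = 0.479). Under restriction Zbtb20 had 25.4 ± 12.2 CPM in mutants and 19.7 ± 8.36 CPM in wild types (log2 change 0.37 ± 0.28, adjusted p = 0.388).

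Zbtb20 was called lower in restricted than in fed wild types, at 19.7 ± 8.36 CPM and 37.2 ± 6.19 CPM, a log2 change of -0.91 ± 0.28 (adjusted p = 0.0330, edgeR). The call held in 2 of the 8 fits that left out 1 library, with the adjusted p reaching 0.131. It was lost with library sizes left unscaled (0.0506), with no filter (0.0684) and in a fit of the 8 libraries alone (0.0770). Afp, which Zbtb20 is known to repress, was not called in that comparison, where restricted wild types held 0 to 18 Afp counts per library. A link between these genes was not tested. Dbp, a clock-driven factor first found at the Alb promoter, was the other of the 2 factors called there, lower by a log2 change of -1.76 ± 0.40 (adjusted p = 0.00460). In old wild types, where Alb was lower, Dbp was higher, at 30.6 ± 17.6 CPM against 3.89 ± 1.38 CPM in young wild types (log2 change 2.96 ± 0.36, adjusted p = 8.25e-06). Alb and Dbp stood in opposite directions in both comparisons. Dbp levels follow the time of day, and the hour of collection is not given in the sources used here. Both Dbp calls held without any 1 library.

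**Figure D4:**
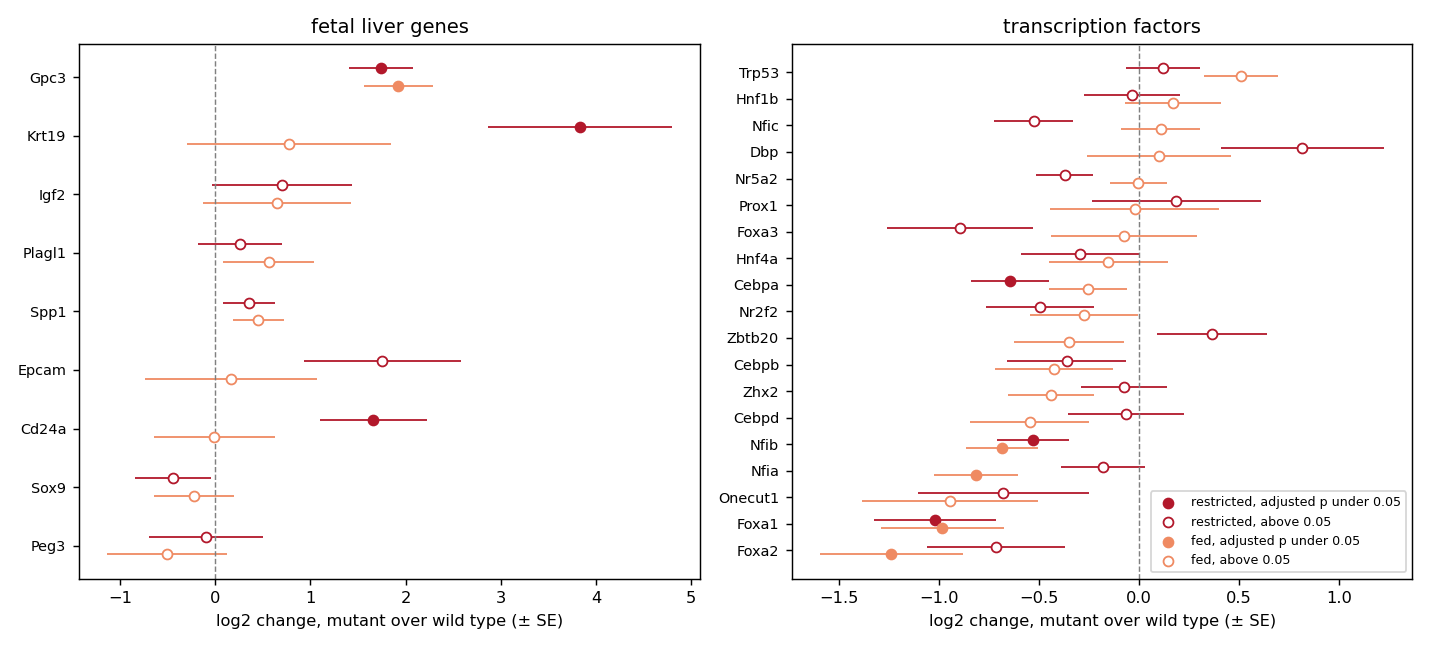
Log2 change of mutants over wild types (x axes, bars for ± SE) for 9 fetal liver genes and 19 transcription factors (y axes), under restriction and fed, with filled points where the adjusted p was under 0.05. Gpc3 is filled under both diets, and the 4 factors filled in fed animals all lie below 0.

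Some other plasma proteins rose with Alb under restriction. Of 35 other abundant plasma proteins of hepatocytes, 8 were called higher and none lower in restricted than in fed wild types, with a median log2 change of 0.20, beside 0.02 over all genes, of which 12.1% were called. Serpinc1 (antithrombin) was higher by 0.69 ± 0.14 (adjusted p = 0.00188, edgeR), Rbp4, the carrier of retinol, by 0.71 ± 0.15 (0.00307), and Kng1 (kininogen) by 0.61 ± 0.14 (0.00446). A1bg, a plasma glycoprotein, spread from 14.7 to 504 CPM in restricted wild types, against 8.42 to 16.4 CPM in fed wild types (log2 change 3.98 ± 0.90, adjusted p = 0.00689). In a fit of the 8 libraries alone the adjusted p was 0.0786 for Serpinc1, 0.0659 for Rbp4, 0.0859 for Kng1 and 0.117 for A1bg. In restricted over fed mutants 1 of the 35 was called higher and 2 lower, with a median of -0.01, beside 0.00 over all genes, of which 11.6% were called. Ttr, the carrier of thyroid hormone, fell to 2676 ± 272 CPM in restricted mutants, against 3771 ± 494 CPM in fed mutants (log2 change -0.50 ± 0.13, adjusted p = 0.0112), while Alb rose. Serping1, the C1 inhibitor, also fell, by 0.65 ± 0.16 on the log2 scale (adjusted p = 0.00625).

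Between the genotypes under restriction, where Alb was not called, 11 of the 35 plasma proteins were called lower and 1 higher, with a median of -0.30, where 18.2% of all genes were called. Ttr was lower by a log2 change of -0.92 ± 0.13 (adjusted p = 1.51e-05, edgeR), Serpinc1 by -0.80 ± 0.14 (0.000243) and Apoh, a phospholipid-binding glycoprotein, by -0.58 ± 0.13 (0.00287, and 0.0745 in a fit of the 8 libraries alone). In fed mutants over fed wild types 3 were higher and 4 lower, with a median of 0.10, where 10.7% of all genes were called. Itih3, of the inter-alpha-trypsin inhibitor family, was higher by 0.91 ± 0.21 (adjusted p = 0.00657) and Kng1 by 0.55 ± 0.14 (0.0102), while Apoa2, an apolipoprotein of high-density lipoprotein, was lower by a log2 change of -0.60 ± 0.16 (0.0135) and Ttr by -0.48 ± 0.13 (0.0140), and these last 2 reached 0.0630 and 0.0593 without 1 library. None of the 35 was called for the difference between the genotypes in their response to restriction. In old over young wild types 3 of 35 were called higher and none lower, a share near the 9.34% of all genes, and Ahsg (fetuin-A) was higher by 0.66 ± 0.15 (adjusted p = 0.00491) where Alb was lower. Between mutants of 16 and 7 weeks Itih3 was the 1 called, higher at 16 weeks by 1.04 ± 0.22 (adjusted p = 0.0212). That call held in 1 of the 8 fits that left out 1 library, with the adjusted p up to 0.116.

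Genes that handle the 4 proteins were followed as a list of 10, of which 7 were tested. Vdr, Cyp24a1 and Cubn, genes of vitamin D action, breakdown and uptake, lay under the filter. None of the 7 was called in fed mutants over fed wild types, where 10.7% of all genes were called. Fcgrt, the receptor that rescues albumin from breakdown, had 109 ± 5.15 CPM in old wild types and 138 ± 3.72 CPM in young ones (log2 change -0.34 ± 0.10, adjusted p = 0.0271, edgeR). Its call held in 1 of the 8 fits that left out 1 library, with the adjusted p reaching 0.0781. B2m, the partner chain of that receptor and of class I molecules, fell in restricted mutants to 1383 ± 238 CPM, against 2244 ± 194 CPM in fed mutants (log2 change -0.70 ± 0.13, adjusted p = 0.000746). Ttpa, which loads vitamin E for export, had 134 ± 17.6 CPM in old wild types and 226 ± 36.6 CPM in young ones (log2 change -0.75 ± 0.17, adjusted p = 0.00664). Cyp27a1, an enzyme of bile acid synthesis that also hydroxylates vitamin D, was higher in restricted than in fed wild types by 0.51 ± 0.13 (adjusted p = 0.00766, and 0.106 in a fit of the 8 libraries alone), and Gc, the vitamin D carrier, was not called there.

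Of 9 neighbours listed on chromosome 5, 5 were tested. In fed mutants over fed wild types, where 10.7% of all genes were called, none of the 5 was called higher and 1 was called lower. With 5 genes and that share, the lack of a higher call is not read as a result about the region. Albfm1, the next gene of the family after Afm, 7081 bases further on, had 20.4 ± 4.83 CPM in fed mutants and 24.9 ± 1.80 CPM in fed wild types (log2 change -0.29 ± 0.15, adjusted p = 0.222, edgeR) and was called in no comparison. Slc4a4, a bicarbonate transporter, was lower in fed mutants than in fed wild types, with a log2 change of -0.76 ± 0.20 (adjusted p = 0.0135, and 0.0585 without 1 library). Ankrd17, which encodes an ankyrin repeat protein, had 60.9 to 84.3 CPM in restricted mutants, against 38.6 to 54.1 CPM in fed mutants (log2 change 0.61 ± 0.15, adjusted p = 0.00689) and 28.2 to 48.0 CPM in restricted wild types (0.80 ± 0.15, 0.000448).

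Across the 24 libraries, which share their groups and depth, the members were related to each other to different degrees on the log2 CPM scale. Alb and Gc had a Pearson r of 0.54 and Alb and Afm of 0.29. Afp had an r of 0.02 with Alb, 0.12 with Afm and -0.45 with Gc. With group means taken out, Alb, Afm and Gc were related pairwise at 0.55 to 0.59, and Afp stayed between -0.09 and 0.03 with each. The genes most like Afp by Pearson r were Dap3 (0.91), Igsf23 (0.91), Usp18 (0.91), Slc25a12 (0.91) and Tinag (0.90). Those most like Alb were Cyp4a29 (0.88), Rnf128 (0.87), Cbr1 (0.87), Bche (0.87) and Gm5678 (0.86). For Gc they were Hgfac (0.83), Ces1a (0.82), Ces1h (0.79), Ddrgk1 (0.79) and Glg1 (0.78), while for Afm the nearest, Lama4, reached 0.68. By rank correlation 2 of the 5 genes nearest to Gc stayed among its nearest 5, and none did for Alb, Afp or Afm. With group means taken out 1 of the 5 stayed for Gc, and none did for Alb, Afp or Afm.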

How the data were processed

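Liver lysates were treated with cycloheximide and RNase I and footprints were sequenced, per the labels' protocols. The deposited values are raw counts per gene that the authors made. The submitters' processing notes name cutadapt 3.4, Bowtie2 2.4.2, Trimmomatic 0.39, STAR 2.7.0f and 2.7.8a, featureCounts of Subread 1.6.4 and the build GRCm38.p6, with no order or role, and how reads with several matches or strands were treated is not given in the sources used here. Column names were matched to sample titles. Totals were 13366558 to 27084259 counts (median 17758223.5), and 13 genes with no symbol held 0.00106% of all counts. These 13 stayed in the totals and went through the filter, and only the search by symbol passed them over.

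Genes were filtered with filterByExpr over the 6 groups, and 12211 of 22429 were tested with edgeR 4.0.16 (R 4.3.3) in a robust quasi-likelihood fit of all 24 libraries with TMM factors and 18 residual degrees of freedom. The biological coefficient of variation was 24.2%. Shares of raw counts and log2 ratios to Alb (0.5 added to each count) were tested with two-sided exact permutation tests over 70 assignments in Python 3.11.15. The fit was tested on simulated data. Alternatives were other scalings, no filter, DESeq2 1.42.0, fits of only the groups compared, the replicate number as a block, other denominators and leaving out each library. Intervals and limits of counts cover counting error only.

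Members and lists were chosen with earlier results of these data known. Named list genes are the called ones with the smallest adjusted p, up to 4 per list and comparison, with Zhx2, Zbtb20, Ercc1 and Albfm1, and the genes most like a member are the 5 with the highest Pearson r. The untested fetal genes and partners were named after their values were seen. Open reading frame values were not used here. Promoters came from RefSeq, where all 4 members matched by symbol. One of the listed transcription factors is not reported here.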

Additional observations from a re-analysis of the deposited data

Results flagged for a closer look

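In fed wild types of 16 weeks, replicate 1 stood apart in the log2 ratio of Gc to Alb. Its value was -4.24, against -3.94 to -3.89 in the other 3 libraries of the group. The gap to the nearest library was 0.837 of the range, above Dixon's 95% critical value for 4 samples. Of 66 groups of values checked this was the 1 past that limit, and chance passes about 1 in 20. The lower ratio in restricted than in fed wild types did not rest on it, since without any 1 of the 8 libraries the difference stayed between -0.60 and -0.44 on the log2 scale.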

How the results depend on the processing

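Of 223 log2 changes of the 4 genes under settings that left out no single library, 214 kept their direction and side of the threshold. Another 5 turned and 4 lost their call. Only 7 of the 28 main tests had a call to lose. With library sizes left unscaled, Afm turned to 0.048 in fed mutants over fed wild types, to 0.034 between mutants of 16 and 7 weeks and to 0.0038 in restricted over fed wild types, Alb to 0.076 between the mutant ages, Gc to 0.0082 in restricted over fed mutants and Zhx2 to 0.036 in restricted mutants over wild types, all without a call. Under that scaling the median of all genes moved by 0.10 in fed mutants over wild types, 0.11 between mutant ages and 0.11 in restricted mutants over wild types, and by 0.07 or less in the other comparisons. Lost calls among the 223 were Gc in restricted mutants over wild types (-0.32 unscaled, -0.46 in a fit of the 8 libraries), and in such fits Alb in old wild types (-0.60) and in restricted wild types (0.69). With 1 library left out, Alb in old wild types lost its call in 6 of 8 fits. Gc in restricted mutants over wild types lost it in 5 of 8 and Alb in restricted wild types in 1 of 8. The cause was not tested.

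Gene counts past the threshold moved by over 1.5 times in fits of only the groups compared: to 2138 in fed mutants over wild types, against 1310, 436 between mutant ages, against 53, 658 in restricted over fed wild types, against 1483, and 769 in restricted mutants over wild types, against 2227. Between mutant ages the count was 99 unscaled and 167 with DESeq2, which gave 279 for the interaction, against 98. Without the Mup genes the share differences, in percentage points, turned to 9.83e-05 (Afm, old wild types), -0.000384 (Afm, mutant ages), -0.00243 (Afm, restricted wild types) and -0.0472 (Gc, restricted mutants), and without the 20 most counted other genes the last 2 were -0.00137 and -0.0290.

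Leaving out 1 library gave these log2 ranges. Between mutant ages they were -0.10 to 0.062 for Alb and -0.0045 to 0.13 for Gc. In restricted over fed mutants they were -0.16 to 0.0067 for Gc and -0.024 to 0.12 for Zhx2. For the interaction they were -0.051 to 0.13 for Alb and -0.056 to 0.20 for Afm. In restricted mutants over wild types they were -0.10 to 0.15 for Afm, -0.59 to -0.39 for Gc and -0.29 to 0.050 for Zhx2. In old wild types they were -0.83 to -0.46 for Alb and -0.14 to 0.020 for Afm. In restricted over fed wild types they were 0.62 to 0.76 for Alb, -0.80 to 0.040 for Afp and -0.12 to 0.14 for Afm. Shares ranged from -0.0172 to 0.0334 for Gc in restricted over fed mutants, and for Afm from -3.79e-05 to 0.00159 between mutant ages, -0.00198 to 0.00325 in restricted wild types and -0.00264 to 9.69e-05 in old wild types. Log2 ratios to Alb ranged from -0.056 to 0.10 for Gc in fed mutants over wild types, and between mutant ages from -0.028 to 0.12 for Gc and -0.10 to 0.0060 for Afm. Genes called ranged from 806 to 1090 in fed mutants over wild types, 17 to 43 between mutant ages, 934 to 1463 in restricted over fed mutants, 61 to 205 for the interaction, 755 to 1034 in old wild types and 941 to 1864 in restricted over fed wild types.

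Deviations from the group means had a median r of 0.00635 between libraries of the same number, with 10 of 60 pairs over 0.1. Between libraries of different number the median r was -0.00154, with 11 of 180 pairs over 0.1. The medians were close, but pairs over 0.1 were more frequent at the same number, so whether the numbers mark a partial pairing was not settled. The replicate block changed no call of the 4 genes and left the counts within 1.5 times, such as 1250 genes in fed mutants over wild types, against 1310. DESeq2 gave no adjusted p for Afp in old wild types. Depth limits Afp in wild types, where a library held 0 to 18 counts.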

Other observations

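Sox9, a factor of bile duct and progenitor cells, was the 1 fetal liver gene called in old over young wild types, with a log2 change of 1.45 ± 0.41 (adjusted p = 0.0266, edgeR). The call held in 4 of the 8 fits that left out 1 library, and the change fell as low as 0.59 (adjusted p = 0.284). Afp was not called in that comparison. Nr5a2 and Cebpd, factors of the liver, were also higher in old than in young wild types, by 0.56 ± 0.14 (0.0125) and 1.16 ± 0.29 (0.0116), and leaving out 1 library took these to 0.0541 and 0.0635.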
